A study of Mus musculus with 10 samples.

Results

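Expression of the Hedgehog pathway was followed through 9 genes in mouse liver cells sorted as hepatic stellate cells (HSCs). Group names are those of the study, and levels of cell type markers are given below. The genes were the ligands *Ihh* and *Dhh*, the receptor *Ptch1*, the ligand-binding inhibitor *Hhip* and the signal transducer *Smo*. Added to these were the transcription factors *Gli1*, *Gli2* and *Gli3*, and the Gli inhibitor *Sufu*. All 9 were chosen by name, as the entries whose gene symbol equals theirs. Each matched 1 of the 25233 entries with a symbol. In hypertrophied HSCs (hypHSCs), *Hhip*, *Dhh*, *Ptch1*, *Gli3* and *Smo* were lower than in quiescent HSCs (qHSCs), and *Gli1* was higher. *Sufu* did not pass the test, and *Gli2* and *Ihh* were too low to be tested. The fall of *Hhip* was by far the largest of the 7 genes tested, from 5038 ± 2030.1 normalized counts in qHSCs to 1.58 ± 2.39 in hypHSCs (mean ± SD, n = 5 libraries per group).

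Hedgehog ligands are secreted proteins that act on neighbouring cells. Without ligand, the receptor PTCH1 holds the membrane protein SMO inactive and outside the primary cilium, SUFU retains the GLI proteins, and GLI3 is cut into a repressor of transcription. When a ligand binds PTCH1, SMO enters the cilium and full-length GLI proteins act on their target genes, among which are *Ptch1*, *Hhip* and *Gli1* themselves. HHIP binds all mammalian Hedgehog ligands at the cell surface and takes them away from PTCH1. In the liver, stellate cells are known both to receive and to make Hedgehog ligands, and the pathway has been tied to their change into myofibroblasts.

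The RNA of FACS-sorted liver cells of mice, C57BL/6J by the labels and male by the methods, was sequenced as 10 libraries. The hypHSCs, sorted on green fluorescence, came from mice on the CDAHFD, a fat-rich diet without choline that causes steatohepatitis and fibrosis. For hypHSC 1 and 2 the diet had lasted 13 weeks and the mice were 19 weeks old, and for hypHSC 3, 4 and 5 it had lasted 12 weeks and the age was 18 weeks. The qHSCs, sorted on blue fluorescence, came from mice on the standard diet, aged 36 weeks for qHSC 1, 2 and 5 and 34 weeks for qHSC 3 and 4. Diet, age, enzyme digestion and sorting gate differed together between the groups, so their effects cannot be told apart. The preparations had been selected for RNA integrity, the hypHSC ones from more samples than mice, and the mouse behind each library is not given in the sources used here. The p-values therefore measure the spread between these 5 preparations per group, which may be partly technical. In such bulk samples, fewer cells of a type and less RNA per cell cannot be told apart.

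Reads on genes with a symbol numbered 30534719 to 43283589 per library in hypHSCs and 35640104 to 47317028 in qHSCs. At this depth 3 reads, taken as the limit of detection, equalled 2.25 to 4.54 normalized counts. This limit holds for counting error alone. The library hypHSC 5 had the fewest genes with a read, 14028. All 15 markers of quiescent HSCs were lower in hypHSCs, with summed levels of 34562 to 68344 normalized counts per library against 1404771 to 2297065 in qHSCs. All 15 core macrophage markers were higher, with sums of 1247283 to 1771897 against 6929 (qHSC 2) to 146736 (qHSC 4). Of all genes tested, 17.8% were called higher and 21.7% lower in hypHSCs. None of the macrophage markers was at or under 3 reads in all libraries of a group. In hypHSCs, activated HSC markers gave 2 genes higher and 4 lower of 12. These counts were 1 and 4 with DESeq2 and with edgeR. With scaling on *Hprt*, *Pgk1* and *Actb* they were 0 and 6, where 10.1% of all genes were higher and 47.8% lower. Every difference between the groups described here stood beside this difference in marker sums, and their part in it was not tested. Within qHSCs, qHSC 2 had the highest quiescent HSC sum and was the highest in *Hhip*, *Ptch1*, *Smo*, *Gli3*, *Sufu* and *Dhh*. It also had the lowest macrophage sum and the least *Gli1*. Within hypHSCs, hypHSC 1 had the highest quiescent HSC sum and was the highest in *Hhip*, *Ptch1*, *Dhh* and *Gli1*. It was not the highest in *Smo*, *Gli3* or *Sufu*. Whether the order of libraries follows the sums was not tested.

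The ligands were low in both groups. *Dhh* (desert hedgehog, chr15:98789036-98796423 on GRCm39, minus strand) had 46.2, 81.8, 41.7, 65.9 and 58.4 normalized counts in qHSC 1 to 5. In hypHSC 1 it had 13.5, from 10 reads, and in the other hypHSC libraries it was at 0. The groups did not overlap, and only hypHSC 1 had any read in the lower one. The log2 fold change, always hypHSC over qHSC on the scale of log2(normalized count + 1), was −5.09 (SE 0.81, limma adjusted p = 0.000373), and −3.26 with 5 added in place of 1. Exons of *Dhh* share 28.3% of their bases with other genes, 546 of them on the same strand with *Rhebl1*, a small GTPase gene. In hypHSCs *Rhebl1* itself had 71.3 ± 45.1 normalized counts, against 171 ± 56.6 in qHSCs (SD, n = 5), again without overlap, so the part of shared reads in the *Dhh* values was not tested.

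*Ihh* (Indian hedgehog, chr1:74984476-74990833, minus strand) had 17.5 normalized counts in hypHSC 1 and 17.2 in qHSC 1, from 13 and 19 reads. It was at 0 in the other libraries, so that each group held 1 library with reads and the groups overlapped (exact two-sided permutation test, p = 1). *Shh* (sonic hedgehog), the ligand best known from development and not among the 9 genes, was at 0 in all 10 libraries, which allows up to 3 reads in each. *Dhh* was thus the ligand gene with reads in all qHSC libraries.

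*Hhip* (chr8:80692481-80784637, minus strand) was the gene that separated the groups most. In qHSC 1 to 5 it had 5134, 7459, 1856, 5003 and 5740.3 normalized counts, and in hypHSC 1 to 5 it had 5.39, 0, 2.49, 0 and 0. The lowest qHSC library, qHSC 3, which also had the lowest sum of quiescent HSC markers in its group, still stood far above every hypHSC library. Of the latter, hypHSC 1 alone exceeded 3 reads. The log2 fold change was −11.27 (SE 0.62, limma adjusted p = 2.34e-07), a size that depends on the added 1, being −9.52 with 5 added and −11.94 with 0.5 added. Pooled over libraries, 7 reads were counted in hypHSCs and 30292 in qHSCs, a level 3236 times higher in qHSCs after scaling by the size factors (95% exact Poisson interval 1570.4 to 8048, counting error only). It rests on hypHSC 1, without which 3 reads remained and the level was 6311 times higher. Other genes overlap 3.31% of the exon bases of *Hhip*, none of them a protein-coding gene.

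*Ptch1* (chr13:63656143-63721274, minus strand), the receptor and a Gli target, had 604, 979, 577, 578 and 476 normalized counts in qHSC 1 to 5. In hypHSC 1 to 5 the values were 101, 64.2, 54.1, 65.0 and 25.7. The groups did not overlap, with qHSC 2 above the other qHSC libraries and hypHSC 5 below the other hypHSC ones. The log2 fold change was −3.43 (SE 0.37, limma adjusted p = 2.41e-05), or 10.4 times fewer normalized counts in the group mean. No exon of *Ptch1* is shared with another gene in the annotation.

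The sequences before the starts of *Hhip* and *Ptch1* are shown because both are Gli targets, both bind ligand, and they fell together. They are the 250 bases before the RefSeq transcript start in GRCm38.p6, both on the minus strand, at chr8:80058009-80058258 for *Hhip* and chr13:63565736-63565985 for *Ptch1*, written 5′ to 3′ with CpG dinucleotides in capitals.
Hhip: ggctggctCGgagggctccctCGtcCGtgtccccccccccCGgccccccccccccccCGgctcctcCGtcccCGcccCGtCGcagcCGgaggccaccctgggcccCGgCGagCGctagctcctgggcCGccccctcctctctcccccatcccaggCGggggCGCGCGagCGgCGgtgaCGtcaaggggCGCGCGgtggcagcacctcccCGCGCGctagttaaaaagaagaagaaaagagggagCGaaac
Ptch1: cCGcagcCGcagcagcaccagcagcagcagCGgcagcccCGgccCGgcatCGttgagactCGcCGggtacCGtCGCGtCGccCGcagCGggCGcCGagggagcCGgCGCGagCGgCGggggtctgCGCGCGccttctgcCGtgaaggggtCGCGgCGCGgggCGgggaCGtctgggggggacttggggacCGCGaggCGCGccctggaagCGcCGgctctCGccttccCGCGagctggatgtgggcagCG
The stretch holds 28 CpG dinucleotides for *Hhip* and 41 for *Ptch1*. In RefSeq windows of 300 bases (250 before to 50 after the start), found for 8 of the 9 genes, CpG counts ran from 12 for *Dhh* and *Sufu* to 47 for *Ptch1*, against a median of 7 over 32851 windows. The GLI consensus GACCACCCA, searched on both strands, was in 0 of these 8 windows and in 83 of all (0.253%). In the 5000 bases before the GRCm39 start it was in 0 of the 9 genes and in 848 of 21770 protein-coding genes (3.9%). This search says only that these exact letters are not in these windows.

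**Figure D1:**
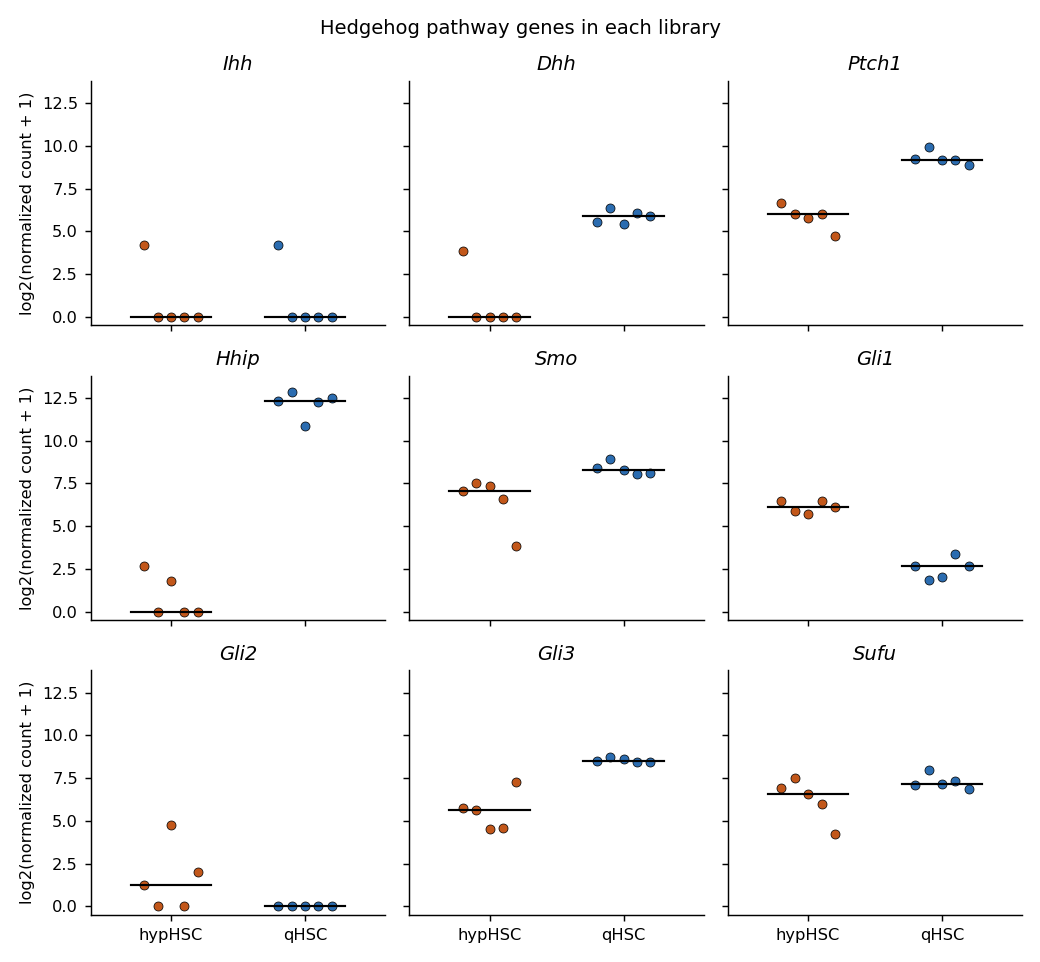
Each panel plots 1 gene, with log2(normalized count + 1) on the vertical axis, 1 point per library (5 hypHSC in orange, 5 qHSC in blue, in order of number) and a line at the group median. *Hhip*, *Ptch1*, *Smo*, *Gli3* and *Dhh* are lower in every hypHSC library than in any qHSC library, *Gli1* is higher in every one, and *Sufu*, *Gli2* and *Ihh* overlap.

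*Smo* (chr6:29735496-29762525, plus strand), which encodes the transducer of the signal, had 337, 483, 309, 268 and 280.2 normalized counts in qHSC 1 to 5. In hypHSC 1 to 5 it had 135, 183, 165, 96.5 and 13.6. The groups did not overlap, with hypHSC 2 next to qHSC 4, and hypHSC 5 stood far below the rest with 9 reads. *Smo* fell by 1.87 on the log2 scale (SE 0.62, limma adjusted p = 0.0278). The call was lost without qHSC 1 (adjusted p = 0.0536), qHSC 2 (0.0657) or qHSC 3 (0.0505). Without hypHSC 5 the fold change was −1.21 (adjusted p = 0.00343), and with libraries scaled on the genes *Hprt*, *Pgk1* and *Actb* it was −2.80. Exons of *Smo* hold the processed pseudogene *Gm13717*, 365 bases on the same strand, whose reads cannot be told apart from its own.

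The 3 Gli genes went in different directions. *Gli3* (chr13:15637820-15904611, plus strand), the main source of Gli repressor, had 358, 426, 391, 345 and 347 normalized counts in qHSC 1 to 5. In hypHSC 1 to 5 it had 52.6, 49.7, 21.6, 23.1 and 153. The qHSC libraries lay close together, and the hypHSC libraries were all below them, with hypHSC 5 well above the other 4. The log2 fold change was −2.99 (SE 0.49, limma adjusted p = 0.000439). The library hypHSC 5, lowest of its group in *Ptch1*, *Smo* and *Sufu*, was thus the highest in *Gli3*. Of 7 entries without a symbol that lie inside *Gli3*, 3 also had every qHSC library above every hypHSC library. The highest of them had 152 ± 30.6 normalized counts in qHSCs and 9.59 ± 13.7 in hypHSCs (SD, n = 5). Among all genes tested, 39.5% had groups that did not overlap, in either direction. For such entries inside other Hedgehog genes the count was 1 of 1 for *Dhh* and 0 of 1 for *Smo*. It was 0 of 2 for each of *Ptch1*, *Sufu* and *Gli2*.

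*Gli1* (chr10:127165751-127177843, minus strand), a Gli target that acts as an activator, was the only one of the 9 genes called higher in hypHSCs. It had 87.6, 58.0, 50.7, 87.1 and 69.6 normalized counts in hypHSC 1 to 5 and 5.43, 2.56, 3.15, 9.41 and 5.25 in qHSC 1 to 5. The qHSC values rest on 3 to 11 reads per library and the hypHSC values on 46 to 83, without overlap. The log2 fold change was 3.61 (SE 0.48, limma adjusted p = 9.99e-05). The direction was opposite to that of *Ptch1* and *Hhip*, the other Gli targets among the 9.

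The 3′ end of *Gli1* overlaps that of *Arhgap9*, a gene on the opposite strand, over 66 bases in the deposited positions (chr10:127165751-127165816) and over 103 exon bases in GENCODE. The libraries keep no strand, so reads in the overlap cannot be told apart. *Arhgap9* had 546, 691, 566, 893 and 960.4 normalized counts in hypHSC 1 to 5 and 29.9, 0, 15.0, 116 and 5.25 in qHSC 1 to 5, high and low in the same groups as *Gli1*. Within qHSCs, where *Gli1* rests on 3 to 11 reads, qHSC 4 had most *Arhgap9*, macrophage marker RNA and *Gli1*, and qHSC 2 had least of all 3. Within hypHSCs the order of the 2 genes agreed in part. There hypHSC 1 had the least *Arhgap9* and the most *Gli1*, and hypHSC 2, with the highest macrophage marker sum, had 58.0 normalized counts of *Gli1*. Both hypHSC 3 and hypHSC 2 were lower in *Arhgap9* and in *Gli1* than hypHSC 4 and hypHSC 5. In hypHSCs the *Gli1* value was 7.24% to 16.0% of that of *Arhgap9* (median 8.96%). In qHSCs it was 8.15% to 100%, leaving out qHSC 2 where *Arhgap9* was at 0. The antisense long noncoding gene *Gm47200* shares a further 265 bases with *Gli1*. The part of these genes in the *Gli1* difference was not tested.

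**Figure D2:**
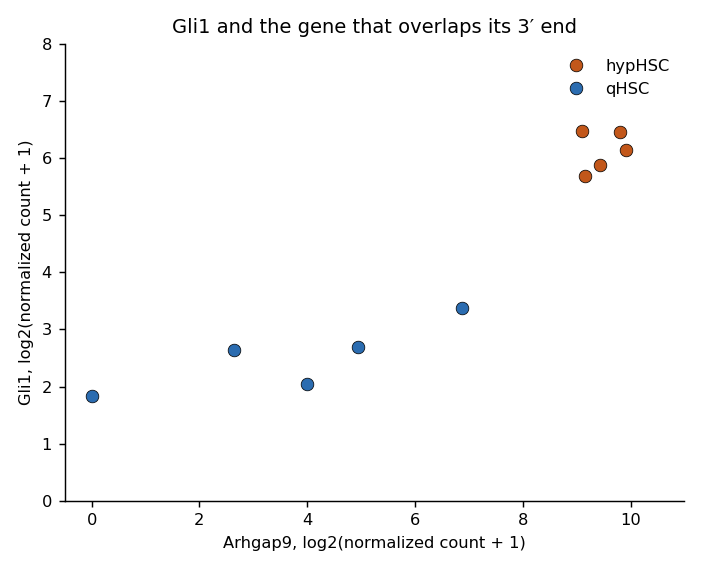
Log2(normalized count + 1) of *Gli1* (vertical axis) against that of *Arhgap9* (horizontal axis), 1 point per library, hypHSC in orange and qHSC in blue. The 5 hypHSC libraries lie together at the upper right, and in qHSC 2 (lower left) *Gli1* had 2.56 normalized counts where *Arhgap9* had 0.

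*Gli2* (chr1:118761791-118981349, minus strand), the main Gli activator in most tissues, was at 0 in all qHSC libraries, which allows up to 3 reads in each. In hypHSC 1 to 5 it had 1.35, 0, 25.8, 0 and 3.02 normalized counts, so that only hypHSC 3, with 31 reads, stood above the limit of detection. The groups overlapped (exact two-sided permutation test, p = 0.167), and the gene did not reach the level needed for the test across all genes. *Sufu* (chr19:46385335-46477243, plus strand), which retains and restrains the Gli proteins, had 137, 255, 140.1, 163 and 115 normalized counts in qHSC 1 to 5 and 119, 180.1, 94.0, 63.0 and 18.2 in hypHSC 1 to 5. These ranges overlapped, and hypHSC 5 was the lowest. The log2 fold change of *Sufu* was −1.04 (SE 0.56, 95% interval −2.26 to 0.18), with a limma adjusted p of 0.143 and an exact two-sided permutation p of 0.0952. It passed with the hypHSC libraries at 12 weeks alone (−1.68, limma adjusted p = 0.0346) and with scaling on *Hprt*, *Pgk1* and *Actb* (−1.98, adjusted p = 0.00236).

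Of the 9 genes, 7 reached 10 normalized counts in 5 or more of the 10 libraries and were tested. A gene was called where its log2 fold change was 1 or more in size with an adjusted p of 0.05 or less, and by this rule 1 was higher and 5 were lower. Among all 14630 genes tested, 39.5% were called, 17.8% higher and 21.7% lower, and 39.5% had groups that did not overlap. *Hhip*, *Dhh* and *Gli1* passed this level only through the group where they are high, so that the share among the tested genes is a description. For each of the 6 called genes the groups did not overlap, and the exact two-sided permutation test gave p = 0.00794, the smallest that 5 libraries against 5 allow. The 7 fold changes had a median of −2.99, against −0.20 over all genes tested.

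**Figure D3:**
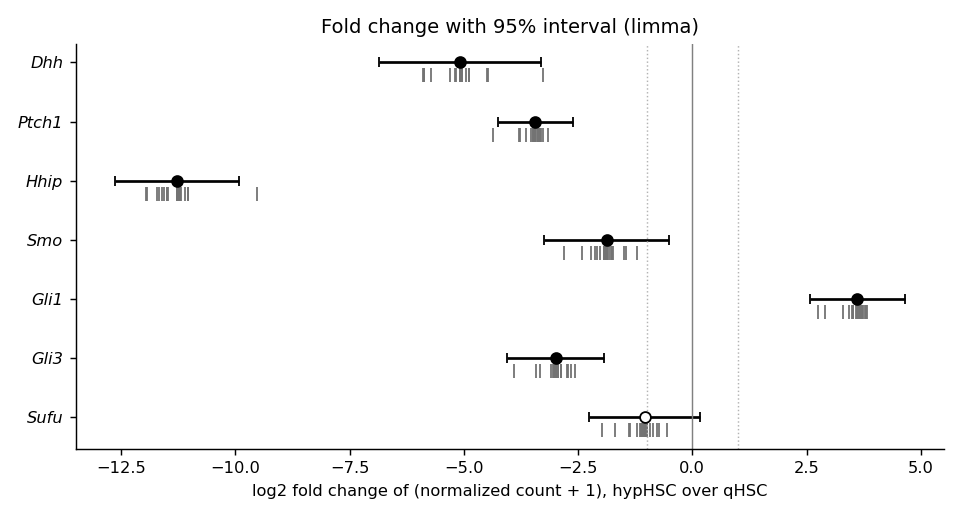
Log2 fold change of (normalized count + 1), hypHSC over qHSC, for the 7 tested genes (points, filled where called) with the 95% interval of limma (bars). Grey marks below each bar are the values under the alternative settings and with each library left out, and dotted lines stand at an absolute value of 1; the interval of *Sufu* alone crosses 0.

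Levels of different genes were compared as FPKM, which here divides the reads by exon length and by the library's reads on genes with a symbol. In qHSCs *Hhip* led with 14.2 ± 5.51 (SD, n = 5), its lowest library above the highest of any other of the 9 genes. *Ptch1* (1.34 ± 0.407), *Smo* (1.16 ± 0.304) and *Gli3* (1.14 ± 0.136) followed and did not differ beyond their spread. Below them came *Sufu* with 0.536 ± 0.182 and *Dhh* with 0.405 ± 0.105, which overlapped each other but neither *Gli3* nor the genes after them. *Ihh*, *Gli1* and *Gli2* were at or under 0.0349 FPKM on average. Quiescent cells thus held more RNA of the inhibitor than of the receptor and the transducer.

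The order in hypHSCs was another one, and every gene overlapped its neighbour. *Smo* (0.335 ± 0.203 FPKM), *Gli1* (0.333 ± 0.0677) and *Sufu* (0.253 ± 0.166) came first, followed by *Gli3* (0.136 ± 0.108) and *Ptch1* (0.102 ± 0.0461). *Hhip* was last, with 0.00373 ± 0.0055 FPKM. All 9 genes were below 1 FPKM in every hypHSC library.

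**Figure D4:**
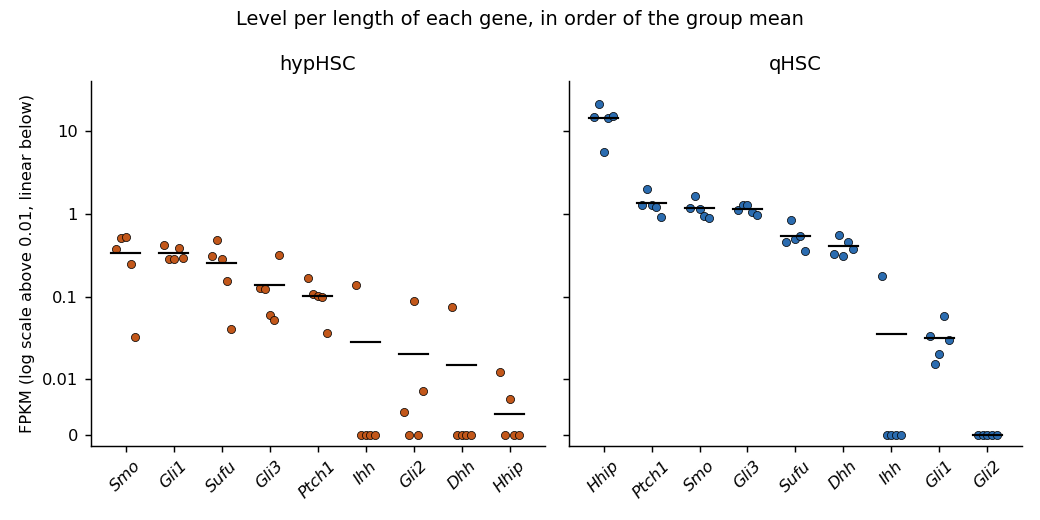
FPKM of the 9 genes in hypHSC (left, orange) and qHSC (right, blue), in order of the group mean (line), with 1 point per library. The vertical axis is logarithmic above 0.01 and linear below; *Hhip* is first in qHSC at 14.2 and last in hypHSC at 0.00373.

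Ratios of genes were also taken within each library. The log2 ratio of *Hhip* to *Ptch1*, each with 1 added, was 1.68 to 3.59 in qHSCs and −6.05 to −3.98 in hypHSCs, so that inhibitor exceeded receptor in every qHSC library and in no hypHSC library. In hypHSC 2, 4 and 5, where *Hhip* had no read, the size of this ratio is set by the added 1 and the scaling of the library, and only its side of 0 can be read. That of *Gli1* to *Gli3* was −6.91 to −5.05 in qHSCs and −1.12 to 1.87 in hypHSCs, again without overlap, with the limit on *Gli1* given above. The ratio of *Ptch1* to *Smo* did overlap between the groups. It was 0.76 to 1.11 in qHSCs and −1.59 to 0.87 in hypHSCs, the highest hypHSC value being that of hypHSC 5, where *Smo* had 9 reads.

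Within the hypHSC libraries, the 2 at 13 weeks of diet and the 3 at 12 weeks were set side by side. *Ptch1* ranged from 64.2 to 101 normalized counts at 13 weeks and from 25.7 to 65.0 at 12 weeks, and *Sufu* from 119 to 180.1 and from 18.2 to 94.0. *Gli1* overlapped, with 58.0 to 87.6 and 50.7 to 87.1. With so few libraries per time no test was made. All 6 calls held with the 12-week libraries alone.

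Other genes of the pathway were taken from lists drawn up from general knowledge. Of 12 genes for the remaining ligand, receptors, co-receptors and ligand release, 7 were tested, of which 1 was called higher and 5 lower (median log2 fold change −2.57), where 17.8% of all genes were higher and 21.7% lower. *Disp2* reached the test only through qHSCs, where it is high, so that these shares are a description. Without a filter beyond 1 normalized count in 1 library, 11 were tested, 0 called higher and 5 lower (median 0.095). By that setting 14.8% of all genes were higher and 17.6% lower. The co-receptors, which present ligand to PTCH1, split. *Gas1* fell from 856 ± 194 normalized counts in qHSCs to 178 ± 124 in hypHSCs, and *Cdon* from 76.3 ± 28.5 to 14.3 ± 15.5 (SD, n = 5), the latter not called by edgeR (adjusted p = 0.0804). *Boc* had 51.8 ± 15.6 and 20.4 ± 9.79 and was called higher (log2 fold change 1.39, limma adjusted p = 0.0309), a call lost in 9 of 23 alternatives. These were scaling to the same total (1.05, adjusted p = 0.0797) or on *Hprt*, *Pgk1* and *Actb* (0.49, 0.453), no filter beyond 1 normalized count in 1 library (0.0574), the replicate block (0.0681), the 12-week hypHSCs alone (0.066), and leaving out hypHSC 2 (0.0619) or qHSC 3 (0.0723), 4 (0.0576) or 5 (0.0661). *Gas1* was also among the 5 tested genes most like *Gli3* in pattern over the libraries.

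Of the genes that make and release ligand, *Disp2*, of the Dispatched family that frees ligand from the cell, had 67.4 ± 32.8 normalized counts in qHSCs and no read in any hypHSC library, at least 19.5 times fewer when 3 reads per hypHSC library are allowed. *Disp1* fell from 66.0 ± 16.3 to 17.8 ± 11.2 (SD, n = 5) and *Hhat*, the ligand acyltransferase, from 75.1 ± 21.2 to 20.7 ± 18.5. The calls of *Disp1* and *Hhat* were each lost in 9 of 23 alternatives. Both were lost without hypHSC 4 (limma adjusted p = 0.0546 and 0.0863), without any 1 of the qHSC libraries (0.0514 to 0.0765 and 0.061 to 0.0788) and with edgeR (0.0665 and 0.131). *Disp1* was also lost with 0.5 added (0.0538) and under the replicate block (0.051), and *Hhat* without hypHSC 5 (0.0515) and with DESeq2 (0.0698). *Scube1*, a secreted carrier of ligand, had 146 ± 113 in hypHSCs and 63.8 ± 19.4 in qHSCs and did not pass (limma adjusted p = 0.474). *Lrp2*, *Scube2*, *Scube3* and *Shh* were too low to be tested.

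Of 34 genes that act on SMO or on the Gli proteins, 3 were called higher and 11 lower (median −0.91), where 17.8% and 21.7% of all genes were. With scaling on *Hprt*, *Pgk1* and *Actb* none was higher and 28 were lower, where 10.1% of all genes were higher and 47.8% lower. *Evc*, a partner of SMO at the base of the cilium, fell from 177 ± 42.1 normalized counts in qHSCs to 9.82 ± 5.94 in hypHSCs. *Dzip1*, which acts on Gli proteins and cilium formation, fell from 293 ± 59.9 to 18.7 ± 13.7. *Adcy5* and *Adcy6* are adenylyl cyclases, whose product cAMP drives the kinase that prepares Gli proteins for cutting. *Adcy5* fell from 531 ± 183 to 10.5 ± 15.9 and *Adcy6* from 230 ± 57.5 to 81.6 ± 114 (SD, n = 5). The groups of *Adcy6* overlapped, since hypHSC 1 had 261 normalized counts where qHSCs had 156 to 291, and the hypHSC mean was 36.7 without that library. Its call (limma adjusted p = 0.0409) was lost in 10 of 24 alternatives, namely without hypHSC 3 (0.0884), 4 (0.0753) or 5 (0.0564), without any 1 of the qHSC libraries (0.0598 to 0.078), with DESeq2 (0.249) and with edgeR (0.282). The 3 genes called higher were *Arrb2* (1251 ± 548 in hypHSCs, 339 ± 186 in qHSCs), *Grk2* (925 ± 417 and 307 ± 116) and *Gsk3b* (460 ± 71.8 and 202 ± 49.96). None of the 3 was called with scaling on *Hprt*, *Pgk1* and *Actb* (log2 fold change 0.91, 0.55 and 0.27), and *Grk2* and *Gsk3b* were also lost with the same total, and *Grk2* with the 12-week hypHSCs alone. All are general signalling genes that also act outside the Hedgehog pathway, and the first pair is abundant in leukocytes.

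The primary cilium, in which the signal is carried, was represented by 46 genes, of which 44 were tested. In hypHSCs 20 were lower and 2 higher (median −0.99), or 33 and none with scaling on *Hprt*, *Pgk1* and *Actb*. The shares of all genes were 21.7% lower and 17.8% higher, and 47.8% and 10.1% with that scaling. *Ift81*, a subunit of the transport complex that moves cargo to the tip, fell from 1036 ± 98.7 normalized counts in qHSCs to 88.2 ± 78.7 in hypHSCs (SD, n = 5). *Wdr35*, of the complex for the way back, fell from 331 ± 47.6 to 48.0 ± 42.9. *Tctn2* and *Tmem231*, of the gate at the base, fell from 308 ± 138 to 54.5 ± 39.5 and from 147 ± 42.0 to 23.1 ± 26.5. *Tctn1* (1080 ± 546 in hypHSCs and 317 ± 53.2 in qHSCs) and *Cep83* (690 ± 590 and 243 ± 33.5) were higher, and neither was called with scaling on *Hprt*, *Pgk1* and *Actb* (log2 fold change 0.67 and 0.26). *Cep83* had 1727 normalized counts in hypHSC 5 and a hypHSC median of 472, and without that library its mean was 431 and it was not called (log2 fold change 0.79). Its call was also lost without hypHSC 4 (limma adjusted p = 0.0627), without any 1 of the qHSC libraries (0.0501 to 0.0711) and with the same total (0.0799).

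Of 34 genes described as Gli targets in one tissue or another, 21 were tested, 12 were lower and 6 higher (median −2.67), where 21.7% and 17.8% of all genes were. Some reached the test only through the group where they were high, so that these shares are a description. Without a filter beyond 1 normalized count in 1 library, 30 were tested, 13 lower and 6 higher (median −0.96). By that setting 17.6% and 14.8% of all genes were. *Foxf1*, a mesenchymal transcription factor, fell from 1949 ± 309 normalized counts in qHSCs to 83.5 ± 53.3 in hypHSCs (SD, n = 5), and *Bmp4* from 1473 ± 300 to 49.2 ± 42.3. *Pdgfra* fell from 5305 ± 1665 to 480 ± 320 and *Snai1* from 140.3 ± 77.1 to 12.2 ± 11.7. The largest rise was that of *Spp1*, osteopontin, with 237752 ± 72318 in hypHSCs and 122 ± 154 in qHSCs. *Prdm1* (182 ± 59.6 and 8.38 ± 7.02), *Sox9* (500.3 ± 437 and 22.01 ± 12.0) and *Cdkn1a* (15999 ± 3456 and 2287 ± 936) were also higher. *Spp1* and *Sox9* are also on the list of cholangiocyte markers, all 7 tested genes of which were higher in hypHSCs, and *Spp1* made up nearly all of their sum. Without *Spp1* the sums were 899.9 to 7921 normalized counts in hypHSCs and 6.29 to 60.6 in qHSCs. In qHSCs the cholangiocyte markers *Cldn4*, *Cftr* and *Krt23* were at or under 3 reads in all libraries. *Cldn4* and *Krt23* therefore reached the test only through hypHSCs, where they are high. Only 7 of the 10 listed markers were tested, so that the share called higher is a description.

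**Figure D5:**
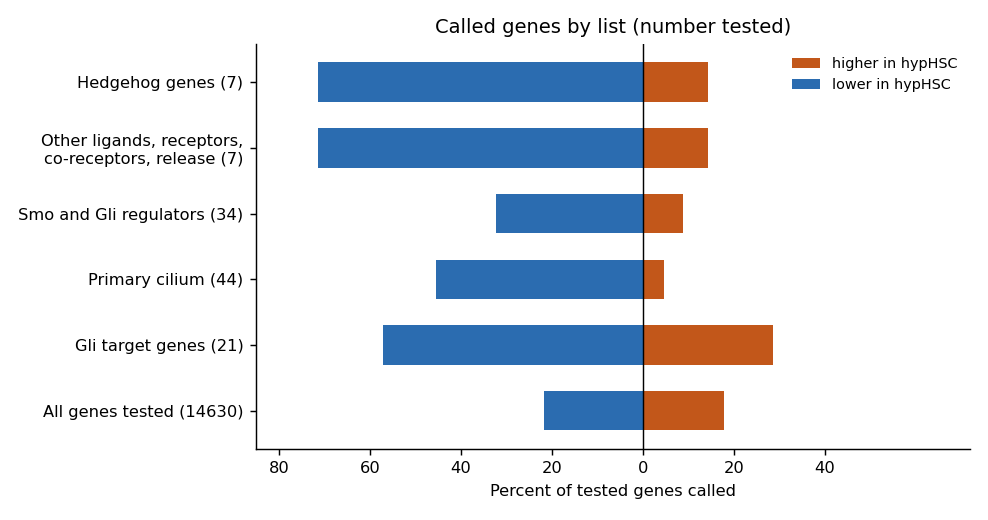
Percent of tested genes called lower (blue, left of 0) and higher (orange, right of 0) in hypHSC for the 9 Hedgehog genes, 4 further lists of the pathway and all genes tested, with the number tested in parentheses. Lower calls outnumber higher ones in each list, as they do among all genes (21.7% and 17.8%).

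The genes whose pattern over the 10 libraries was most like that of a Hedgehog gene were found by the root mean square difference of the log2 values, each centred on its mean, among 14629 other tested genes. For *Hhip* they were *Egfem1* (0.861), *1700063D05Rik* (0.879), *Galnt14* (1.12), *Ntm* (1.17) and *Nt5e* (1.28). The first 3 of these were listed at 0 in every hypHSC library and had 2199.7, 1643 and 905 normalized counts on average in qHSCs. The nearest genes were *Mylk* for *Ptch1* (0.210), *Ncstn* for *Smo* (0.196), *Rgs10* for *Gli1* (0.228), *Mill2* for *Gli3* (0.322), *Fkbp8* for *Sufu* (0.232) and *Gm12709* for *Dhh* (0.392). *Rgs10*, the nearest to *Gli1* and a regulator of G protein signalling, had 6332 normalized counts on average in hypHSCs and 507 in qHSCs. Since each gene was centred over all 10 libraries, this likeness includes the difference between the groups.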

How the data were processed

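RNA from 5 hypHSC and 5 qHSC preparations was reverse transcribed from the poly(A) tail, amplified and sequenced from both ends (59 bases) without strand. The submitters' processing notes name STAR, featureCounts (Subread 1.5.0), DESeq2 and the build mm39 (GRCm39). The deposited table holds a signal for each gene, made by the authors by dividing each library's read counts by its DESeq2 size factor (0.661 to 1.20 in hypHSCs, 1.10 to 1.33 in qHSCs), and are called normalized counts. Whether featureCounts dropped reads that fall on more than 1 gene is not given in the sources used here.

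Multiplying each library by its factor returned whole reads (within 0.02) for 100% of the values. These reads gave depth, FPKM, and the DESeq2 (1.42.0) and edgeR (4.0.16) alternatives. Genes that carry a symbol and reach 10 normalized counts in 5 libraries or more were compared as log2(normalized count + 1) with limma 3.58.1 (lmFit, eBayes with trend) in R 4.3.3, and p was adjusted by Benjamini-Hochberg over all 14630 genes. Called genes had a log2 fold change of 1 or more in size and an adjusted p of 0.05 or less. Exact permutation tests (scipy 1.17.1) used every arrangement of 5 libraries against 5. The steps were tested on simulated data. FPKM used exon lengths of GENCODE vM39 on GRCm39, and positions of genes were read from the deposited table. RefSeq windows are on GRCm38.p6, and no position was converted.

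The Hedgehog genes, lists and tests were chosen with earlier results of these data known. Genes named are the 9 Hedgehog genes, the further ligand and receptor genes (not all are reported here), and from each other pathway list up to 4 called genes with the largest rises and up to 4 with the largest falls among those whose mean reached 100 normalized counts in a group. The genes most alike in pattern (5 for *Hhip*, 1 for each other tested gene) and marker genes are also named. *Arhgap9*, *Rhebl1*, *Gm13717* and *Gm47200* were named after their overlap with a Hedgehog gene was seen, and *Gas1* as like *Gli3* and the cholangiocyte markers without reads after their values were seen. Of the marker lists not described in the report, Kupffer cell genes gave 4 higher and 0 lower of 7 tested. Sinusoidal endothelial genes gave 4 and 3 of 11, hepatocyte genes 0 and 0 of 11, and portal fibroblast and mesothelial genes 4 and 0 of 7. Schwann cell genes gave 1 and 0 of 3, as did T and B cell genes. Of all genes tested, 17.8% were higher and 21.7% lower. The Kupffer cell counts were 1 higher and 1 lower with DESeq2 and with edgeR. They were 1 and 0 with the 12-week hypHSCs alone.

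In alternatives, always 1 choice was changed: the filter, the pseudocount, the test, the scaling (same total, TMM factors, same upper quartile, or *Hprt*, *Pgk1* and *Actb*), the replicate number as a block, hypHSCs at 12 weeks only, each library left out, and entries without a symbol included.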

Additional observations from a re-analysis of the deposited data

Results flagged for a closer look

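In 7 of 19 sets of 5 libraries, 1 library lay farther from the others than Dixon's test allows (0.71 of the range). Chance marks about 1 in 20 such sets, and sets of low counts with most libraries at 0 are marked by any single library with reads. *Ptch1* had 979 normalized counts in qHSC 2, where the other qHSC libraries had 476 to 604. *Gli3* had 152.76 in hypHSC 5 and 21.6 to 52.6 in the other hypHSC libraries. *Gli2* had 25.78 in hypHSC 3 and at most 3.02 in the others of that group. *Ihh* had 17.52 in hypHSC 1 and 17.2 in qHSC 1, and *Dhh* had 13.48 in hypHSC 1, each with 0 in the other libraries of the hypHSC group or, for *Ihh* in qHSC 1, of the qHSC group. *Arhgap9*, the neighbour of *Gli1*, had 115.52 in qHSC 4 and at most 29.9 in the other qHSC libraries. The same library, hypHSC 1, thus held the only reads of both ligand genes in its group.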

How the results depend on the processing

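The 6 calls and their directions held under every alternative in which the gene was tested, except that *Smo* lost its call when qHSC 1, 2 or 3 was left out, and *Sufu* was called in addition with scaling on *Hprt*, *Pgk1* and *Actb* and with the hypHSCs at 12 weeks only. Where only genes with a mean of 50 normalized counts or more were tested, *Gli1* and *Dhh* were not tested and 4 of 5 genes were called. Without a filter beyond 1 normalized count in 1 library, *Gli2* had a log2 fold change of 1.597 (limma adjusted p = 0.148) and *Ihh* one of 0.01. With 1 library left out, 5 or 6 Hedgehog genes and 5241 to 5914 of all genes were called, and the log2 fold change of *Hhip* stayed between −11.71 and −11.05. Including entries without a symbol raised the count of calls from 5779 to 9291 (3911 higher, 5380 lower) because more entries were tested. The same-total scaling moved the median fold change of all genes by −0.35, the upper quartile by 0.12, *Hprt*, *Pgk1* and *Actb* by −0.94, edgeR by 0.14, and the 12-week libraries alone by −0.11. Higher genes were 45.03% of the calls, but 32.4% with the same total and 17.4% with *Hprt*, *Pgk1* and *Actb* (1472 higher, 6990.0 lower). Their share was 49.4% with the upper quartile, 49.2% with DESeq2 and 52.2% with edgeR (2786 higher, 2550 lower). With the replicate number as a replicate block, 5786 genes and 6 Hedgehog genes were called. The numbers pair nothing by the labels, and deviations of libraries with the same number correlated at 0.00815 to 0.129, with the own number best in 1 of 5 pairs. Depth limits *Gli2*, *Ihh*, *Hhip* and *Dhh* in the lower group, where most libraries had no read.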
